A study of Mus musculus with 8 samples.

Results

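The genes described here are 5 Krüppel-like factors (Klf2, Klf3, Klf4, Klf6 and Klf13) and 4 genes of lymph node homing or of T cells that have not been activated (S1pr1, Ccr7, Dapl1 and Txk). They were taken by name, and all 9 were found among the 20029 genes of the deposited table. RNA came from CD8+ T cells sorted out of MC38-OVA colon carcinomas, a mouse tumour line carrying ovalbumin, grown under the skin. The Pglyrp1 KO group (n = 4, libraries 1 to 4) is the strain B6.129S4-Pglyrp1tm1.1Lky/J, whereas the WT group (n = 4, libraries 6 to 9) is C57BL/6J. Both groups bore the same tumour, no drug is named for either, and the labels give no ages. A library holds RNA of 1000 sorted cells.

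Naive T cells circulate between blood and lymph nodes. CCR7 responds to chemokines of the node and brings cells in, and S1PR1, the receptor for sphingosine 1-phosphate, lets them leave again. KLF2, a zinc finger transcription factor, maintains S1pr1 in resting T cells, and T cell receptor signals switch Klf2 off. Cells that stay in a tissue keep Klf2 and S1pr1 low. In bulk RNA, fewer cells of a type and less RNA per cell cannot be told apart.

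Levels are TPM, transcripts per 1000000, a scale that by definition is per transcript length. The deposited values carry this name, but how they were scaled is not given in the sources used here, so levels of different genes are set side by side on the assumption that the name holds. The targeted gene, Pglyrp1, was listed at 0 in each KO library, against 123, 210, 208 and 153 TPM in WT 6 to 9. Library sums of the deposited values ran from 2223162 to 3342847, with 11935 to 13300 genes above 0. T cell identity genes were present throughout: the summed level of the 9 measured (Cd8b1 and Cd3g the most abundant) was 5783 to 6594.5 TPM in KO and 6004 to 8091 TPM in WT libraries. A pair of libraries stood apart in each group. Of 14 measured myeloid markers, 13 had their 2 highest values in KO 3 and KO 4. WT 6 and WT 9 had 34.5% and 34.3% of their TPM in ribosomal protein genes, against 19.4% to 28.2% in the other 6 libraries. Fold changes of the 9 genes described are therefore also given without WT 6 and 9. The plot of fold changes also gives them without KO 3 and 4. This choice was made after seeing the data. The fit without WT 6 and 9 rests on WT 7 and 8 alone in that group. Where WT 6 and 9 are both above WT 7 and 8, leaving them out can only raise the KO over WT fold change. Gene positions are those of GENCODE M21 on mm10.

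None of the 9 genes differed between KO and WT cells beyond the spread between mice. With limma and Benjamini-Hochberg adjustment over 10732 genes, 0 of 9 passed an adjusted p of 0.05, where 0.0280% of all genes did. At an unadjusted p under 0.05 the count was also 0, beside 6.01% of all genes higher and 3.07% lower in KO. The KO and WT values overlapped for every one of the 9, whereas they did not for 2.62% of all genes on the higher and 2.40% on the lower side. Of the 9 fold changes, 2 were positive and 7 negative, with a median of -0.32 on the log2(TPM + 1) scale, beside a median of 0.04 and 44.8% negative over all genes tested. What did differ was the level between libraries of one genotype. WT 6 and WT 9 were both above each of the other 6 libraries in 5 of the 9 genes (Klf2, Klf13, S1pr1, Ccr7 and Dapl1), as in 7.43% of all genes tested.

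**Figure D1:**
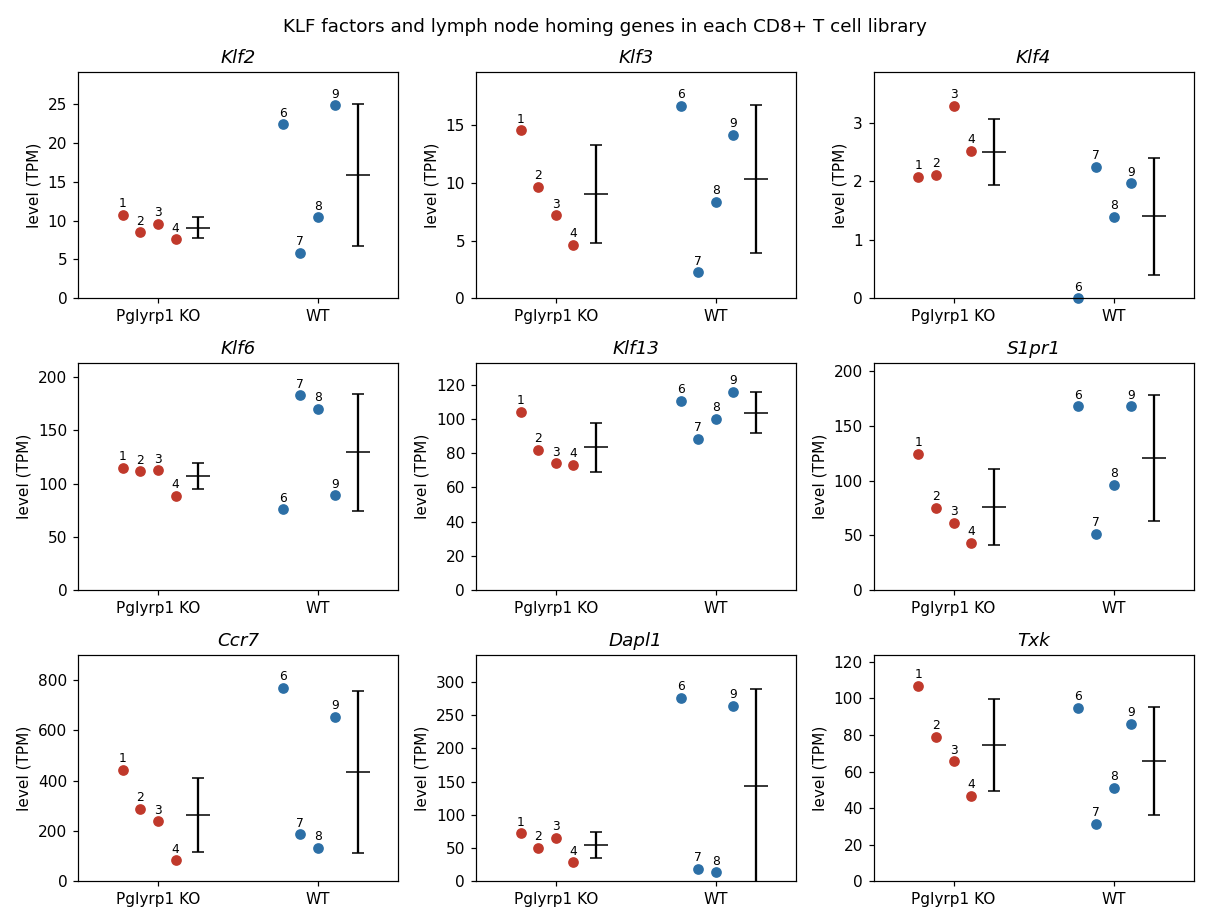
Level in TPM of each gene in each library, KO 1 to 4 in red and WT 6 to 9 in blue, with the mean and SD of each group (n = 4) as a black bar beside the points; every vertical axis starts at 0. Ccr7 ran from 84.2 to 443 TPM in KO and from 134 to 769 TPM in WT libraries, and in Klf2, S1pr1, Ccr7 and Dapl1 the WT values split into a high pair (6 and 9) and a low pair (7 and 8).

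Klf2 (chromosome 8, 72319033 to 72321656) was among the 3 least abundant of the 9. It was at 10.7, 8.46, 9.57 and 7.57 TPM in KO 1 to 4, against 22.4, 5.85, 10.4 and 24.8 TPM in WT 6 to 9. The KO values lay close together, inside the range of the WT values. The means were 9.09 ± 1.37 TPM in KO and 15.8 ± 9.16 TPM in WT cells (SD, n = 4 each); the log2 fold change was -0.56 (SE 0.40, 95% interval -1.46 to 0.34, limma adjusted p = 0.692). Without WT libraries 6 and 9 it was 0.18.

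The bases before the start sites of Klf2, Dapl1 and Txk are shown for KLF2 itself, for the gene with the widest range, and for a gene whose ratio to S1pr1 is described among the pairs. They are the 250 bases upstream of the RefSeq start (GRCm38.p6, the mm10 assembly), read on the gene's strand, at chr8:72318812-72319061 (plus), chr2:59484403-59484652 (plus) and chr5:72752778-72753027 (minus). Capitals mark CACCC (bound by KLF factors) or GTAAACA (bound by FOXO factors), each on either strand.
Klf2: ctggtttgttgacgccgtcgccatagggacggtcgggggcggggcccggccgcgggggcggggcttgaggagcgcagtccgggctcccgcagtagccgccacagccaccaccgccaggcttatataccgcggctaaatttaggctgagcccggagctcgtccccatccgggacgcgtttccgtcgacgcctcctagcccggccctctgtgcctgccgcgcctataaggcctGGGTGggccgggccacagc
Dapl1: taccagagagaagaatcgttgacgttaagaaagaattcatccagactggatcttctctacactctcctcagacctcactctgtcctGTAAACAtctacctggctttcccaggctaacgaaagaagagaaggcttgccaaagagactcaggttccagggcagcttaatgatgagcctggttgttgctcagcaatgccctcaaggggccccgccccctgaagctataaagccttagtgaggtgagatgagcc
Txk: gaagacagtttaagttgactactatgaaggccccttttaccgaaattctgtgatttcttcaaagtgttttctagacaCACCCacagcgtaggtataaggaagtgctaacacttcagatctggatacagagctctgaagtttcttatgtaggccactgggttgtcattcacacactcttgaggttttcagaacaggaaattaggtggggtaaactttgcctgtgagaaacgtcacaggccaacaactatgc
The Klf2 window was 71.2% G and C. It has 1 CACCC, on the opposite strand and so written GGGTG here, a motif that 52.0% of 32851 windows of this length hold. The GENCODE start of Klf2 lies upstream of the RefSeq start, so the last 29 bases of the window, this match included, are inside the gene as placed above. GTAAACA occurs once before Dapl1 and in 3.17% of windows. ATCAAAG, the TCF and LEF motif, occurs in 3.21% of windows and in none of the 7 members with a window. The window before Klf3 has 5 CACCC matches, of which 3 lie in the 133 bases that are inside the GENCODE gene. Those before Klf13 and Txk have 1 each, and those before Klf4, Klf6 and Dapl1 have none. A match is only a description of the letters, and no binding was measured.

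Klf3 (chromosome 5, 64803388 to 64832901) encodes a repressor of the same family that recruits the corepressor CtBP. Its level was 14.6, 9.67, 7.18 and 4.63 TPM in KO 1 to 4, against 16.7, 2.25, 8.33 and 14.2 TPM in WT 6 to 9. The WT values reached beyond the KO values at both ends, and the log2 fold change was -0.02 (SE 0.53, 95% interval -1.22 to 1.17, limma adjusted p = 0.995). Without WT 6 and 9 it was 0.76.

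Klf13, whose product activates the chemokine gene Ccl5 late in T cell activation, was the steadiest of the 9. It had 104, 81.9, 74.2 and 73.2 TPM in KO libraries and 111, 88.6, 100.01 and 116 TPM in WT libraries. KO 1 alone reached into the WT range. Its log2 fold change of -0.32 (SE 0.16) had the narrowest interval, -0.67 to 0.03 (limma adjusted p = 0.573), and was -0.19 without WT 6 and 9. Klf13 lies on chromosome 7, at 63886351 to 63938915, 45.0 Mb from Pglyrp1. An overlapping gene on its opposite strand, E030018B13Rik, was at 0 to 2.99 TPM in KO and 0 to 2.70 TPM in WT libraries.

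Klf6 (chromosome 13, 5861482 to 5870394), an early response member of the family, had the opposite profile among WT libraries. It was at 115, 112, 112 and 88.4 TPM in KO 1 to 4, against 75.6, 183, 171 and 88.9 TPM in WT 6 to 9. WT 7 and WT 8 were the highest of all 8 libraries and WT 6 the lowest. The log2 fold change was -0.18 (SE 0.29, 95% interval -0.82 to 0.46, limma adjusted p = 0.876) and -0.73 without WT 6 and 9.

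Klf4 (chromosome 4, 55527143 to 55532466), which restrains proliferation of CD8+ T cells and is also used by monocytes and endothelium, was near the lower limit of the table. It was at 2.08, 2.12, 3.29 and 2.52 TPM in KO libraries, against 0, 2.25, 1.39 and 1.97 TPM in WT libraries. In the deposited units these are 6, 7, 11 and 6 in KO and 0, 5, 4 and 5 in WT libraries, so a step of 1 unit is a large part of each value. The highest value was in KO 3, where myeloid markers were also high. The summed level of the 14 myeloid markers was 614, 435, 7193 and 10273 TPM in KO 1 to 4, against 344 to 1252 TPM in WT libraries, with H2-Ab1 and Lyz2 the most abundant. Their part in the Klf4 value was not tested. The log2 fold change was 0.66 (SE 0.40, 95% interval -0.22 to 1.55, limma adjusted p = 0.637), and 0.50 without KO 3 and 4.

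S1pr1 (chromosome 3, 115710433 to 115715072), the egress receptor, resembled Klf2 in its profile. It was at 124, 75.0, 61.6 and 42.9 TPM in KO 1 to 4, against 168, 51.3, 95.8 and 168 TPM in WT 6 to 9. WT 6 and WT 9 were highest, followed by KO 1. Among KO libraries S1pr1 varied more than Klf2 (highest over lowest value 2.90 against 1.42). The means were 76.0 ± 34.9 TPM in KO and 121 ± 57.4 TPM in WT cells (SD, n = 4 each). The log2 fold change of -0.62 (SE 0.42, 95% interval -1.56 to 0.33, limma adjusted p = 0.681) was 0.01 without WT 6 and 9.

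Ccr7 (chromosome 11, 99144196 to 99155077) was the most abundant of the 9 on average. It had 443, 289, 238 and 84.2 TPM in KO libraries and 769, 188, 134 and 652 TPM in WT libraries. The highest value was 9.13 times the lowest. Its log2 fold change was -0.57 (SE 0.65, 95% interval -2.04 to 0.89, limma adjusted p = 0.819), and it was 0.50 without WT 6 and 9. Ccr7 is also a gene of mature dendritic cells. Of 10 dendritic cell markers, 8 had their 2 highest values in KO 3 and KO 4, and the sum of all 10 was 56.1, 36.0, 526 and 267 TPM in KO 1 to 4, against 46.4 to 76.5 TPM in WT libraries. Their part in the Ccr7 level was not tested.

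B cells also use Ccr7, S1pr1 and Klf2. Of 7 measured B cell markers, 6 were higher in both WT 6 and WT 9 than in every other library. Their summed level, mostly Cd79b and Cd79a, was 20.8, 6.35, 12.9 and 7.996 TPM in KO 1 to 4, against 49.6, 8.996, 10.4 and 55.1 TPM in WT 6 to 9. Pax5, which defines the lineage, was at 0 in all 4 KO libraries, against 0.406, 0, 0 and 0.393 TPM in WT 6 to 9, where each value above 0 is 1 deposited unit. Their part in the homing gene levels was not tested.

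Endothelial cells use Klf2, Klf4 and S1pr1. Of the 5 endothelial markers in the table, Pecam1, which T cells also use, and Egfl7 gave most of the sum, which was 20.6 to 35.0 TPM in KO and 23.4 to 38.6 TPM in WT libraries. The more specific Kdr was at 0, 0, 12.6 and 5.05 TPM in KO 1 to 4 and at 0 in all WT libraries. Cdh5 was at 0, 0, 3.29 and 0.842 TPM in KO 1 to 4 and at most 0.406 TPM in WT libraries. These 2 of the 5 markers were thus highest in KO 3 and KO 4, whereas Pecam1, Egfl7 and Emcn were not. Pecam1 was at 30.5, 27.8, 16.8 and 12.2 TPM in KO 1 to 4, against 17.5 to 37.0 TPM in WT libraries. Egfl7 was at 3.47, 3.33, 2.39 and 2.52 TPM in KO 1 to 4, and Emcn was at 0 in all KO libraries. The part of these markers in the member levels was not tested.

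Dapl1 (chromosome 2, 59484653 to 59505020), a small protein gene active in naive and memory-like CD8+ T cells, varied most. It was at 72.4, 50.5, 65.2 and 28.6 TPM in KO 1 to 4, against 276, 18.9, 13.9 and 264 TPM in WT 6 to 9. The WT libraries lay on both sides of all 4 KO libraries, and the highest value was 19.8 times the lowest. The SD on the log2 scale was 0.59 in KO and 2.30 in WT libraries. The log2 fold change was -0.39 (SE 0.95, 95% interval -2.53 to 1.76, limma adjusted p = 0.932). Without WT 6 and 9 it was 1.60 (limma adjusted p = 0.348).

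Txk (chromosome 5, 72695978 to 72752777) encodes a kinase of the TEC family that acts downstream of the T cell receptor in cells not yet activated. It had 107, 78.9, 65.5 and 46.7 TPM in KO libraries and 94.7, 31.5, 51.0 and 86.1 TPM in WT libraries. The highest library was KO 1, ahead of WT 6 and WT 9. The log2 fold change was 0.24 (SE 0.37, 95% interval -0.58 to 1.06, limma adjusted p = 0.870), and 0.81 without WT 6 and 9.

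**Figure D2:**
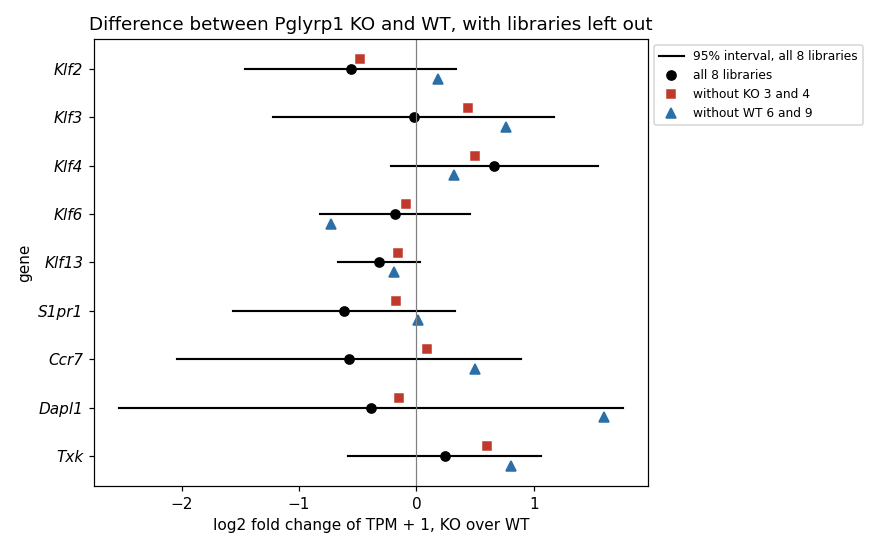
Log2 fold change of TPM + 1, KO over WT, for each gene. Black points and lines give the fit to all 8 libraries with its 95% interval. Red squares give the fit without KO 3 and 4, and blue triangles the fit without WT 6 and 9. All 9 intervals include 0. Klf2, Klf3, S1pr1, Ccr7 and Dapl1 change sign without WT 6 and 9, which are both above WT 7 and 8 in these genes. Leaving them out can therefore only raise the fold change there.

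If the deposited values are per transcript length, the order by mean level over the 8 libraries was Ccr7 (350 TPM), Klf6 (118), Dapl1 (98.6), S1pr1 (98.4), Klf13 (93.6), Txk (70.2), Klf2 (12.5), Klf3 (9.68) and Klf4 (1.95). The ranges of neighbours in this order overlapped except at 1 step, where every value of Txk was above every value of Klf2. Within libraries the order was often different: Dapl1 was above S1pr1 in 3 of 8 libraries, and S1pr1 above Klf13 in 3 of 8.

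For 3 pairs of these genes the ratio of their levels did not overlap between KO and WT libraries. S1pr1 divided by Txk, a ratio that does not depend on how a library is scaled, was 1.17, 0.950, 0.941 and 0.919 in KO 1 to 4, against 1.77, 1.63, 1.88 and 1.95 in WT 6 to 9. Every KO value was below every WT value, WT 6 and 9 or 7 and 8 alike, although each gene alone overlapped. The ratio averaged 0.994 ± 0.115 in KO against 1.81 ± 0.140 in WT cells (SD, n = 4 each). Klf2 divided by Txk was also lower in each KO library (0.101 to 0.162) than in each WT library (0.186 to 0.288). Klf3 divided by S1pr1 was higher in each KO library (0.108 to 0.129) than in each WT library (0.0439 to 0.0993). These were 3 of 36 pairs (8.33%), beside 5.50% of all pairs of tested genes. Both shares were counted on the difference of log2(TPM + 1), not on the ratio itself. A few such pairs are thus common in these data, and the pairs were picked after their values were seen.

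**Figure D3:**
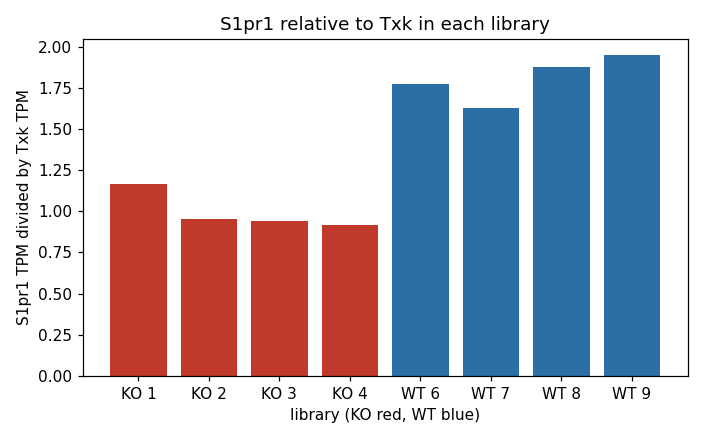
S1pr1 TPM divided by Txk TPM in each library, as bars from 0, KO in red and WT in blue. The KO bars reach 0.919 to 1.17 and the WT bars 1.63 to 1.95.

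The other 12 KLF genes were mostly at or near 0, and 4 of them could be tested. Of these 0 passed the adjusted threshold with limma, and 2 had a positive and 2 a negative fold change. The 1 with an unadjusted p under 0.05 was lower in KO, beside 3.07% of all genes. Klf11, a repressor that responds to TGF-beta, was at 2.77, 2.12, 0.598 and 0.842 TPM in KO and at 4.47, 4.05, 4.51 and 5.11 TPM in WT libraries. Its groups did not overlap (log2 fold change -1.19, unadjusted p = 0.00463, limma adjusted p = 0.395), as for 2.40% of all genes on the lower side. In KO 3 and KO 4, 1 deposited unit was worth 0.299 and 0.421 TPM, so the values there were near the lower limit. The log2 fold change of Klf11 was -0.69 without KO 3 and 4 and -1.12 without WT 6 and 9. Klf10, its close relative, had 21.6 ± 6.31 TPM in KO and 15.9 ± 7.19 TPM in WT cells. Klf7 had 11.1 ± 2.90 and 13.0 ± 5.48 TPM in KO and WT cells, and Klf16 5.99 ± 2.19 and 4.04 ± 1.73 TPM (SD, n = 4 each).

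Among 16 other egress and homing genes, 0 passed with limma. Of their fold changes 7 were positive and 9 negative, with a median of -0.11, beside 44.8% negative over all genes tested. At an unadjusted p under 0.05, 1 was higher and 2 were lower in KO, beside 6.01% and 3.07% of all genes. Itgae, the integrin CD103 that anchors cells in epithelium, had 15.9 ± 6.20 TPM in KO and 38.6 ± 20.0 TPM in WT cells (fold change on the log2 scale -1.14, limma adjusted p = 0.472). Itga4, the alpha chain of VLA-4, had 24.1 ± 8.24 and 12.4 ± 4.13 TPM in KO and WT cells (0.89, limma adjusted p = 0.472). Il7r, the receptor of a survival cytokine, had 87.2 ± 22.9 and 118 ± 12.4 TPM (-0.46, limma adjusted p = 0.527). Cd44, which marks antigen-experienced cells, had 111 ± 33.5 and 71.4 ± 38.0 TPM (0.75, limma adjusted p = 0.588). Without WT 6 and 9 the log2 fold changes were -0.49 for Itgae, 1.19 for Itga4, -0.42 for Il7r and 0.05 for Cd44. Of the 16, 2 were higher in both WT 6 and WT 9 than in every other library, Itgae among them. Another 4 (S1pr2, Itgal, Itgb2 and Cd44) were lower in both than in every other library. The share of all genes lower in both was not computed. S1pr2 was at 6.91 and 11.8 TPM in WT 6 and WT 9, against 20.9 to 31.3 TPM in the rest. S1pr4 and S1pr5, the other sphingosine receptors on the list, showed neither pattern.

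Of 20 genes of quiescence and naive T cells, 0 passed with limma, 4 fold changes were positive and 16 negative, with a median of -0.41. Over all genes tested 44.8% were negative. An unadjusted p under 0.05 was reached by 3, all lower in KO, beside 3.07% of all genes on the lower side. Tsc22d3, a glucocorticoid-induced leucine zipper gene, was at 283, 274, 198 and 126 TPM in KO and at 522, 373, 393 and 546 TPM in WT libraries. Its groups did not overlap (log2 fold change -1.10, limma adjusted p = 0.375), as for 2.40% of all genes on the lower side. Tob1, an antiproliferative gene, was at 4.16, 4.84, 4.49 and 2.52 TPM in KO and at 6.91, 11.2, 14.9 and 5.11 TPM in WT libraries. These groups were also apart (limma adjusted p = 0.472), but only narrowly. KO 2 at 4.84 TPM and WT 9 at 5.11 TPM were closer than 1 deposited unit, which was worth 0.302 and 0.393 TPM there. Btg1 had 90.3 ± 16.3 and 117 ± 10.7 TPM in KO and WT cells (-0.38, limma adjusted p = 0.527). Foxo1, which drives Klf2 and Il7r in T cells, had 7.88 ± 2.65 and 12.9 ± 4.16 TPM (-0.65, limma adjusted p = 0.560). Without WT 6 and 9 the log2 fold changes were -0.86 for Tsc22d3, -1.51 for Tob1, -0.35 for Btg1 and -0.31 for Foxo1. On this list 11 of 20 genes were higher in both WT 6 and WT 9 than in every other library, as were 5 of the 9 members. On the same list 1 gene, Btg2, was lower in both than in every other library, a pattern whose share over all genes was not computed.

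**Figure D4:**
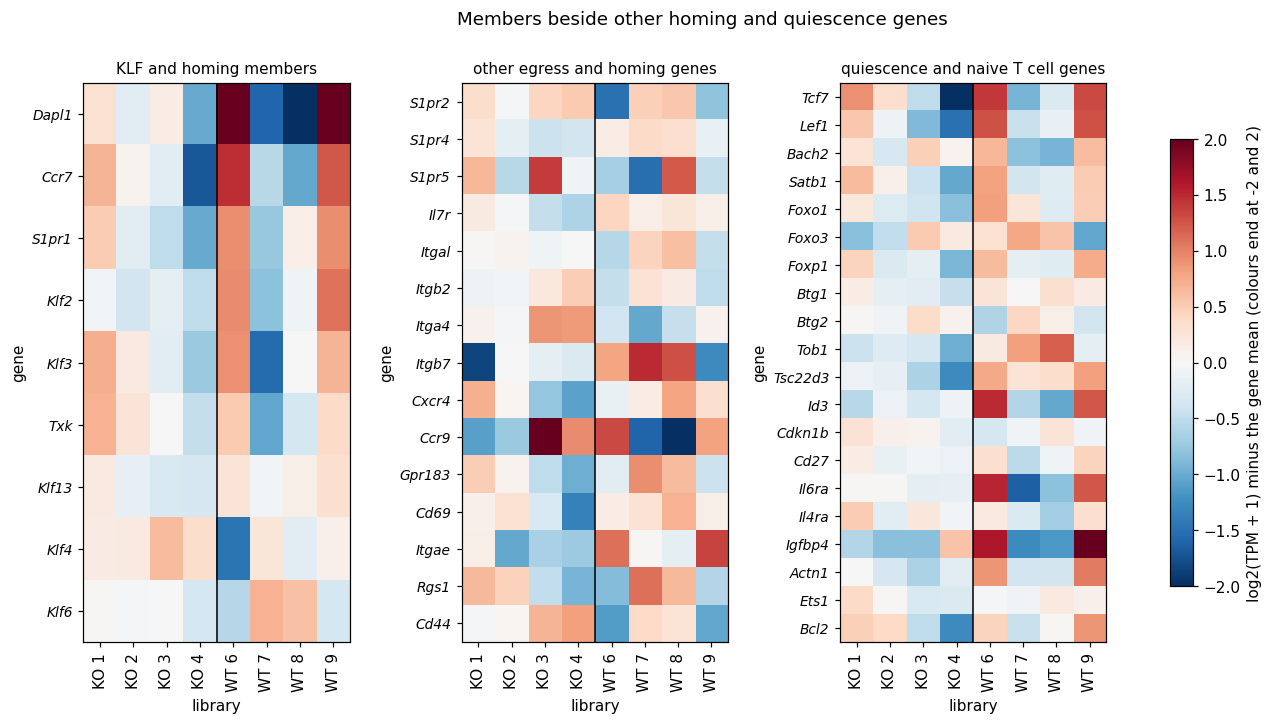
Log2(TPM + 1) of each gene in each library minus that gene's mean over the 8 libraries, red above and blue below the mean, with KO libraries left of the black line and WT libraries right of it. The columns of WT 6 and WT 9 are red for Dapl1, Ccr7, S1pr1 and Klf2 and for Itgae, Tcf7 and Lef1, and Klf6 is blue in both.

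Among the relatives of Txk, Tec had 13.4 ± 1.77 TPM in KO and 9.03 ± 3.53 TPM in WT cells (SD, n = 4 each; fold change on the log2 scale 0.58, limma adjusted p = 0.560). Btk, a kinase of B and myeloid cells, had 1.73, 0.907, 16.2 and 8.84 TPM in KO 1 to 4, against 0 to 2.75 TPM in WT libraries, with its highest values in KO 3 and 4. Of the 3 tested, 0 passed with limma and 1, Btk, had an unadjusted p under 0.05, beside 6.01% of all genes on the higher side.

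The genes whose profile over the 8 libraries was most like a member's were found among 4314 genes of at least 20 TPM, by the root mean square difference of centred log2(TPM + 1). For Klf2 they included Hmgn1 (0.18), Ikbke (0.22), Abcg1 (0.22) and Slc12a7 (0.24), where the median over all candidates was 0.76. For S1pr1 they included Sidt1 (0.19), Slc12a7 (0.21), Tcp11l2 (0.22) and Fam65b (0.22), with a median of 0.82. Klf2 and S1pr1 themselves differed by 0.31, Klf3 and Txk by 0.30, and Klf3 and S1pr1 by 0.36. For Ccr7 the nearest were Pik3ip1 (0.35), Pde2a (0.38), Tcf7 (0.39), Scml4 (0.40) and Lef1 (0.42), with a median of 1.15. Tcf7 and Lef1 encode transcription factors of naive and stem-like T cells. For Dapl1 they included Nsg2 (0.78), Pik3ip1 (0.79), Id3 (0.80) and Igfbp4 (0.86), with a median of 1.58. These are descriptions of 8 libraries that share the WT 6 and 9 contrast.

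The sum of 8 natural killer markers, led by Gzma and Tyrobp, was 925, 834, 2864 and 3233 TPM in KO 1 to 4, against 279 to 1100.1 TPM in WT libraries. This sum was highest in KO 3 and KO 4, but only 4 of the 8 markers were higher in both than in every other library. Gzma was at 717, 598, 502 and 568 TPM in KO 1 to 4 and was highest in WT 8, at 1031 TPM. Fcer1g was at 77.3, 65.9, 996 and 1314 TPM in KO 1 to 4 and at most 41.3 TPM in WT libraries. Tyrobp, an adaptor gene that myeloid cells also use, was at 83.2, 84.9, 1280 and 1291 TPM in KO 1 to 4 and at most 40.6 TPM in WT libraries. The sum of 7 CD4 and regulatory T cell markers, led by Ctla4 and Il2ra, was 132 to 238 TPM in KO and 57.3 to 204 TPM in WT libraries. Cd4 itself was at 4.50, 4.84, 66.7 and 15.6 TPM in KO 1 to 4, against 0.393 to 2.25 TPM in WT libraries. Its groups did not overlap, as for 2.62% of all genes on the higher side. Of the 7 fold changes, 6 were positive and 1 negative. Fibroblast and tumour markers, led by Krt8 and Col3a1, summed to 4.16, 3.93, 13.2 and 109 TPM in KO 1 to 4, against 1.63 to 4.51 TPM in WT libraries. Erythroid and platelet markers, led by Hba-a1 and Pf4, summed to 4.84 to 1192 TPM in KO and 3.60 to 469 TPM in WT libraries. Their part in the levels of the 9 genes was not tested.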

How the data were processed

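Full-length cDNA libraries of sorted CD8+ T cells were compared between Pglyrp1 KO (n = 4) and WT (n = 4) mice. The deposited table holds a score the authors named a TPM-normalized count, in whole numbers whose sums differ between libraries. The submitters' processing notes list RSEM 1.3.3 and mm10. Aligner, annotation and scaling step: not given in the sources used here. Read counts were not used here, so the depth behind a value is unknown and intervals for counting error are left out; 1 deposited unit was worth 0.299 to 0.450 TPM. The labels describe a protocol that does not state strand, so reads of overlapping genes on opposite strands cannot be told apart.

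Values were rescaled so that every library sums to 1000000 (TPM). The 10732 genes reaching 1 TPM in 4 or more libraries were tested on log2(TPM + 1) with limma 3.58.1 in R 4.3.3 (mean trend, group as the only term, Benjamini-Hochberg adjustment at 0.05). This scale understates changes of low genes. The test planned for TPM was kept. Other steps used numpy 2.4.6 and pandas 2.3.3 under Python 3.11.15. The fit was tested on simulated data. P-values measure the spread between mice, as the design text counts 4 mice per genotype. The members, gene lists and tests were chosen with earlier results of these data known. Beside the 9 members, the text names the targeted gene, up to 4 genes of smallest p per pathway list, the 2 most abundant genes per marker list and the 5 most alike genes for Klf2, S1pr1, Ccr7 and Dapl1. Genes named beyond this rule, such as Pax5, Kdr, Cdh5, Cd4 and E030018B13Rik, were chosen after their values were seen. Promoter windows are from RefSeq (GRCm38.p6) and matched 7 of 9 members by symbol. Alternatives varied the pseudocount, filter, scaling, limma options and libraries. Some genes that the rule names are not reported here.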

Additional observations from a re-analysis of the deposited data

Results flagged for a closer look

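Klf6 was at 88.4 TPM in KO 4, against 112 to 115 TPM in the other 3 KO libraries, a gap that is large beside the narrow range of this group. It was 1 of 18 groups of 4 libraries marked for a lone sample, where chance marks about 1 in 20.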

How the results depend on the processing

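Under all 21 alternatives 0 of the 9 members passed the adjusted threshold (limma, lowest adjusted p 0.0883, for Dapl1). Klf4 could not be fitted under a filter of 5 TPM. No paired analysis was possible because no replicate number occurs in both groups. The number of genes called, 3 with all libraries, was 1 to 3 with 1 library left out (1 without WT 6, 7, 8 or 9 in turn) and 1 without KO 3 and 4. Deposited values without rescaling shifted the median fold change of all genes to 0.27, from 0.04. Klf13 and Klf4 kept their sign in every alternative fitted.

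Signs of log2 fold changes turned as follows. With a pseudocount of 0.1 Klf3 was 0.01. Without rescaling Klf3 was 0.22, Klf6 0.05 and Klf7 0.06. With 1 library left out, Klf3 ranged from -0.54 to 0.28, Dapl1 from -1.12 to 0.29, Klf6 from -0.40 to 0.02, Txk from -0.07 to 0.45 and Klf7 from -0.33 to 0.03. Without KO 3 and 4, Klf3 was 0.44 and Ccr7 0.09. Without WT 6 and 9, Klf2 was 0.18, Klf3 0.76, S1pr1 0.01, Ccr7 0.50, Dapl1 1.60 and Klf10 -0.07. Without both pairs, Klf2 was 0.25, Klf3 1.23, S1pr1 0.46, Ccr7 1.17, Dapl1 1.84, Klf10 -0.40 and Cd44 -0.33. For Klf2, Klf3, S1pr1, Ccr7 and Dapl1, WT 6 and 9 were both above WT 7 and 8. Leaving out WT 6 and 9 could thus only raise their fold changes. The settings that leave out pairs were chosen after seeing the data, and the cause of the sign changes was not tested. The share of positive fold changes, 55.2%, was 77.5% without rescaling, 41.5% with quantile normalization and 40.7% with ribosomal proteins and the 20 most abundant genes left out of the sum. Low values such as those of Klf4 are limited by the step of the deposited units.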
